A study of Gallus gallus with 6 samples.

Results

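SOX8, SOX9 and SOX10 are the SoxE transcription factors, 3 of the 13009 genes named on the Affymetrix chicken array, and they were read by 4 of its 38535 probe sets. The members were all probe sets whose platform gene symbol is SOX8, SOX9 or SOX10. SOX10 had 2 probe sets, while SOX8 and SOX9 had 1 each. For SOX10 the set with the higher mean over the 6 arrays stands for the gene and is called the brighter set. Neural crest cells were grown out of neural tube explants of stage 9+ chicken embryos. After 4 h in culture they were exposed for 6 h to homocysteine at 100 uM (3 arrays) or to media alone (control, 3 arrays). Homocysteine is a sulfur amino acid formed in the methionine cycle and, per the labels, a teratogen that alters how neural crest cells migrate. The sources used here do not give genotype, strain or the number of embryos behind each array.

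SoxE proteins bind DNA through a high mobility group box and are among the central regulators of the neural crest. SOX9 is known in chick for its early expression in premigratory crest and for driving cartilage differentiation later, SOX10 marks migrating crest and its glial, melanocyte and autonomic derivatives, and SOX8 overlaps with both. SOX9 is also expressed in neural tube, notochord and somite derivatives, and SOX8, SOX9 and SOX10 in the otic placode, so a whole culture can hold several sources of their transcripts.

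The labels number the arrays 1 to 3 in each group and do not say that they came from separate cultures, so the spread behind the p-values is that between these samples and may be technical. The arrays numbered 1 stood apart in both groups. Their ratio of 5' to 3' signal for ACTB was 0.0590 with homocysteine and 0.0572 in control, against 0.238 to 0.421 on the other 4 arrays, and for GAPDH 0.324 and 0.318, against 0.456 to 0.694. Among those 4 arrays both ratios were lowest on homocysteine array 3, at 0.238 and 0.456. Control array 3 had 0.287 and 0.663, so the arrays numbered 3 differed in this between the groups. Its part in differences between homocysteine and control was not tested. The background of an array was taken as the 95th percentile of its 57 reporter sets, made for sequences from outside the chicken. It was 77.16, 84.88 and 53.24 on homocysteine arrays 1 to 3, and 53.68, 64.32 and 65.62 on control arrays 1 to 3. Of 28 listed crest regulators upstream of SoxE, 23 were above background on all 6 arrays, SNAI2, FOXD3 and TFAP2B among them. PAX3 was above it on 2 homocysteine and 3 control arrays, RXRG on 2 of each group and MYB on none. These genes were named after their values were seen. All 9 measured markers of neural tube progenitors were above background on all 6 arrays. In whole cultures, fewer cells of a type and less RNA per cell cannot be told apart.

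SOX10 was far above background with homocysteine and in control, at levels that overlapped. The brighter SOX10 set was read at an intensity of 3520.9, 4562.5 and 5076 on homocysteine arrays 1 to 3, and at 3160.6, 4964.9 and 4591.8 on control arrays 1 to 3. The groups overlapped, and in each group the array numbered 1 was the lowest. These intensities lay between 45.6 and 95.3 times the background of their own array. The mean was 4386 ± 792 with homocysteine and 4239 ± 952 in control (SD, n = 3 each). The log2 change was 0.06 with a 95% interval from -0.72 to 0.84, which runs from 0.605-fold to 1.79-fold (limma adjusted p = 0.9999; exact two-sided permutation p = 0.7, where the smallest p that 3 arrays against 3 can give is 0.1).

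The second, dimmer SOX10 set was near background. It was read at 36.3, 204.3 and 91.6 on homocysteine arrays 1 to 3 and at 37.1, 203.1 and 142.2 on control arrays 1 to 3. On the arrays numbered 1 it was below background in both groups, and on the other 4 arrays it was 1.72 to 3.16 times background. Its log2 change had the opposite sign to that of the brighter set, at -0.22, with a wide 95% interval from -2.39 to 1.95 (limma adjusted p = 0.9999). Over the 6 arrays the log2 intensities of the SOX10 sets correlated with a Pearson r of 0.85, a description of 6 points that include the low arrays numbered 1. The suffix of their names marks sets whose probes can match more than 1 transcript, and the sources used here do not say where their probes lie on the SOX10 transcript.

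SOX9 was above background on all 6 arrays, closely so on some, and its level differed far more between array numbers than between groups. It was read at 102.2, 96.3 and 441.4 on homocysteine arrays 1 to 3, and at 79, 140.6 and 397.4 on control arrays 1 to 3. The array numbered 3 was the highest in each group, and the other 4 arrays of the study lay together below it. On homocysteine array 2, SOX9 was only 1.13 times background, and on homocysteine array 3 it was 8.29 times background. The mean was 213 ± 198 with homocysteine and 206 ± 169 in control (SD, n = 3 each). The log2 change was -0.0077 with a 95% interval from -2.09 to 2.07 (limma adjusted p = 0.9999, exact two-sided permutation p = 1). That interval, which ignores the replicate numbers, runs from 0.236-fold to 4.20-fold.

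SOX8 was well above background on every array, and its groups overlapped too. It was read at 489.4, 1076.3 and 1207.1 on homocysteine arrays 1 to 3, and at 607.1, 875.5 and 1509 on control arrays 1 to 3. The array numbered 1 was the lowest and the array numbered 3 the highest in both groups. The values lay between 6.34 and 23.0 times the background of their arrays. The mean was 924 ± 382 with homocysteine and 997 ± 463 in control (SD, n = 3 each). The log2 change was -0.11 with a 95% interval from -1.38 to 1.16, or 0.383-fold to 2.23-fold (limma adjusted p = 0.9999, exact two-sided permutation p = 0.8).

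**Figure D1:**
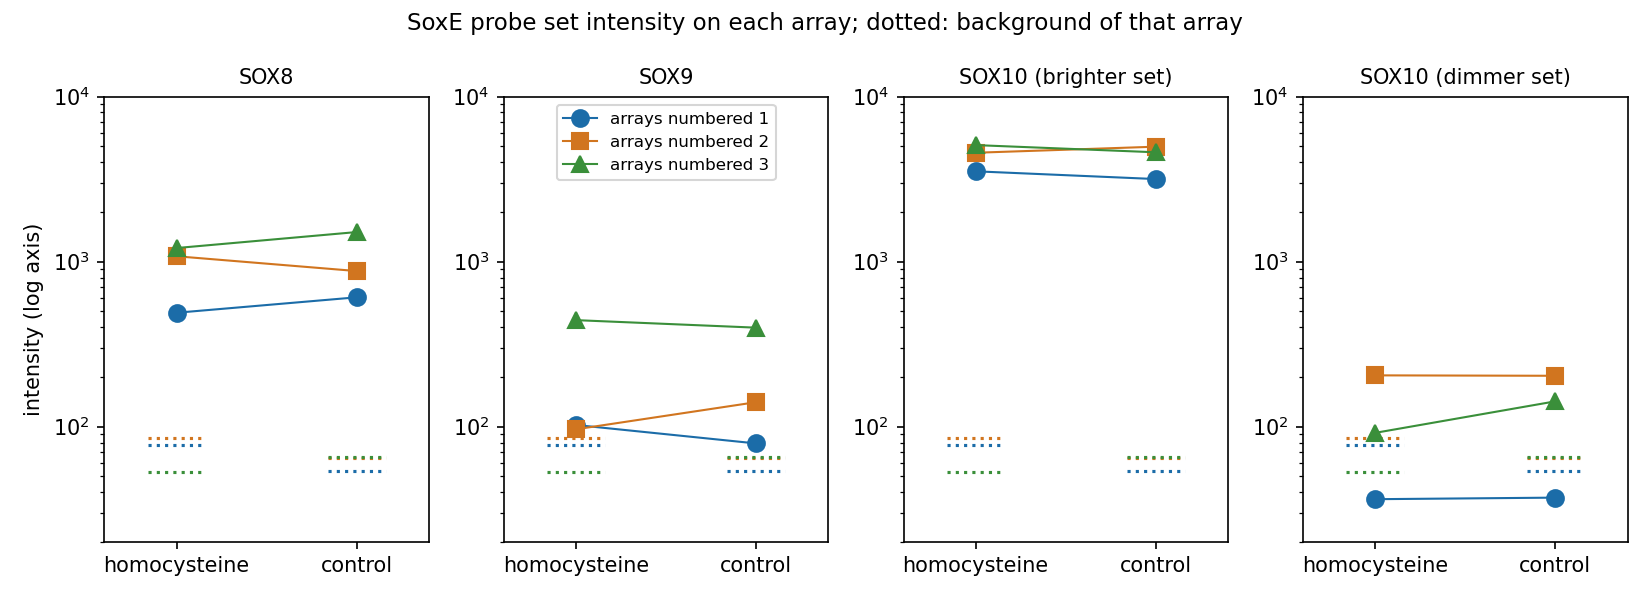
Intensity of the 4 SoxE probe sets on each array (log axis), homocysteine on the left and control on the right of each panel, with lines joining arrays of the same number and dotted marks for each array's background. SOX9 is highest on both arrays numbered 3 (441.4 with homocysteine and 397.4 in control), and the dimmer SOX10 set is below background on both arrays numbered 1.

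The comparison of homocysteine with control asks which transcripts differ after 6 h of exposure. In the limma fit over all 38382 chicken probe sets, 0 of the 4 SoxE sets passed an adjusted p of 0.05, where 0% of all sets were called. At an unadjusted p under 0.05 the SoxE count was also 0, where 1524 of all sets, 3.97%, were called. None of the 4 sets separated the groups without overlap, as 7.14% of all sets did. A p above the threshold does not show that the SoxE genes were equal in the groups. The intervals above give the sizes that remain possible in a fit that ignores the replicate numbers. In a fit with the replicate number as a block, they narrowed to -0.85 to 0.63 for SOX8 and -0.86 to 0.84 for SOX9. For the brighter SOX10 set the interval was then -0.55 to 0.67. The labels do not say that same-numbered arrays share a culture. The median log2 change over all chicken sets was 0.016.

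By same-numbered pair, the direction of the intensity difference was mixed for each of the 3 genes. SOX10 with homocysteine was 1.11, 0.919 and 1.11 times its control for numbers 1, 2 and 3 on the brighter set. SOX9 was 1.29, 0.685 and 1.11 times its control. SOX8 was 0.806, 1.23 and 0.800 times its control. The pair numbered 2 went against the other pairs each time: it was the lower one for SOX10 and SOX9 and the higher one for SOX8. On the dimmer SOX10 set the ratios were 0.978, 1.01 and 0.644. None of the 4 sets had the same sign in all 3 pairs, as 25.4% of all chicken sets did.

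The level over background gave the other sign for the brighter SOX10 set. Dividing by the background moves the log2 change of every probe set by the same amount, so this shift is not particular to SOX10. The background was highest on homocysteine arrays 1 and 2. The mean log2 ratio of the brighter SOX10 set to its array's background was 5.95 with homocysteine and 6.09 in control, a difference of -0.15 (exact two-sided permutation p = 0.7). For SOX9 it was 1.21 with homocysteine and 1.43 in control, and for SOX8 3.61 and 3.93 (exact two-sided permutation p = 0.8 and 0.6). None of these differences was larger than the spread between arrays, which for the SoxE intensities lay mostly between replicate numbers. The permutation test ignores these numbers, so its p does not gauge a shift within same-numbered pairs. By same-numbered pair, SOX8 over background was lower with homocysteine in all 3 (6.34 against 11.3, 12.7 against 13.6 and 22.7 against 23.0). The dimmer SOX10 set was also lower in all 3, while SOX9 and the brighter SOX10 set were higher for number 3 and lower for numbers 1 and 2. The background of the array enters these ratios alike for every set, and for numbers 1 and 2 it was higher with homocysteine. By intensity alone, SOX8 and the dimmer SOX10 set were higher with homocysteine for number 2, at 1.23 and 1.01 times their controls. The share of all sets that were lower in all 3 pairs on this scale was not counted, so these directions are not read as particular to SoxE.

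Leaving out both arrays numbered 1 put SOX8 and SOX10 closer to 0 and SOX9 farther from it. In those 4 arrays the log2 change was 0.011 for the brighter SOX10 set (95% interval -0.86 to 0.88), -0.012 for SOX8 (-1.21 to 1.18) and -0.20 for SOX9 (-3.11 to 2.72), and the limma adjusted p was 0.9999 for each. Each of these values is small beside its interval, as were those from all 6 arrays.

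**Figure D2:**
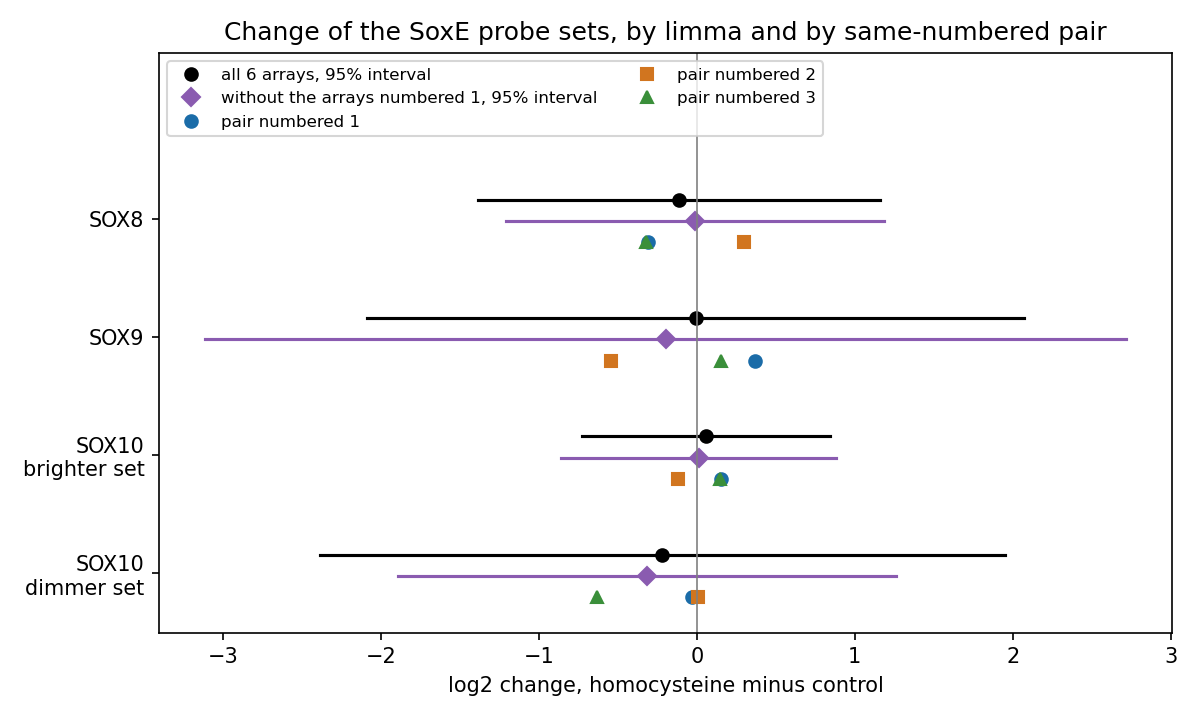
Log2 change, homocysteine minus control, of the 4 SoxE probe sets: limma estimates with 95% intervals from all 6 arrays and without the arrays numbered 1, and the differences of the 3 same-numbered pairs. Every interval spans 0, and the pairs of each probe set lie on both sides of 0.

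Nearly all of the spread of the SoxE genes over the 6 arrays followed the replicate number. The number accounted for 92.4% of the sum of squares of log2 intensity for SOX8, 96.1% for SOX9, 92.4% for the brighter SOX10 set and 96.9% for the dimmer one. The contrast of homocysteine with control accounted for 0.986%, 0.0015%, 1.34% and 1.10% in the same order. Over the 14437 probe sets above background on all 6 arrays, the medians were 73.2% for the number and 4.84% for homocysteine. A high share for the number was therefore general, and the SoxE sets were at the 82nd to 93rd percentile of these sets. The replicate number takes 2 of the 5 degrees of freedom and the treatment 1, so equal shares are not the baseline. The range over the 6 arrays was 1.62 in log2 for SOX8, 2.48 for SOX9 and 0.68 for the brighter SOX10 set, where the median set had 0.80.

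**Figure D3:**
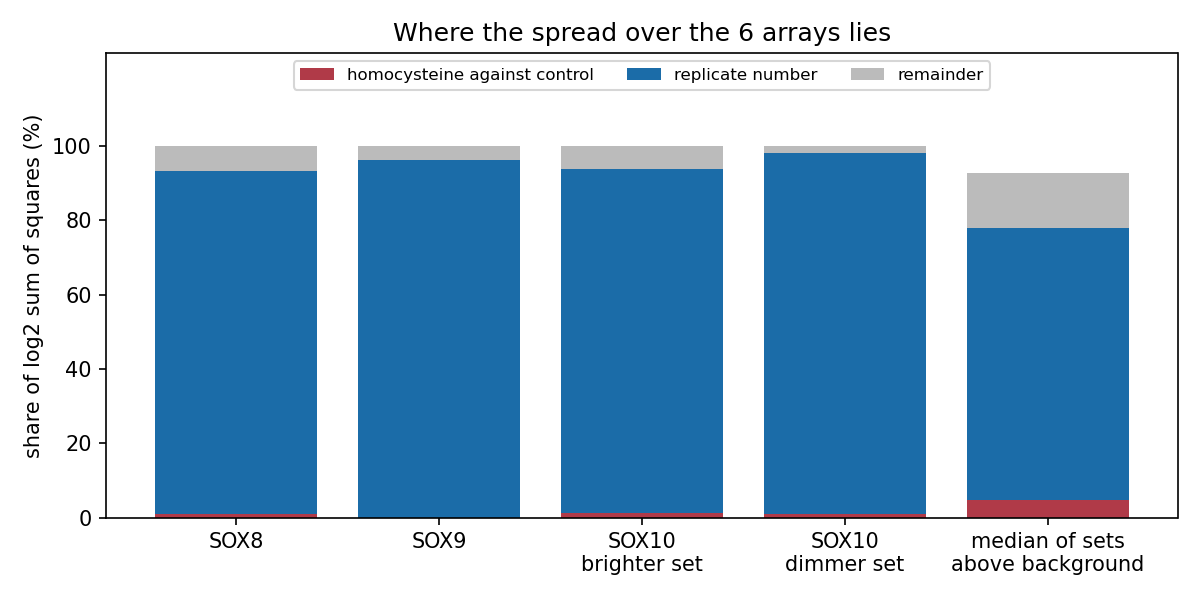
Share of the sum of squares of log2 intensity over the 6 arrays (%) that lies between homocysteine and control, between replicate numbers and in the remainder, for the 4 SoxE probe sets and as the median of each share over the 14437 sets above background, which need not add to 100. The number takes 92.4% to 96.9% in the SoxE sets.

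The arrays numbered 1 carried less signal for SOX8 and SOX10. Both were below all of the other 4 arrays for SOX8 and for the brighter SOX10 set, as were 24.0% of the sets above background on all 6 arrays, while 23.5% were above all of the other 4 there. SOX8 was 0.476 times its level on the other 4 arrays and the brighter SOX10 set 0.696 times (ratios of geometric means). The dimmer SOX10 set was below background on both. These are the arrays with the lowest 5' to 3' ratios given above, and the part of RNA quality in the SoxE levels was not tested. Over all sets above background the median log2 difference of these arrays was -0.0011. Neural tube progenitor markers shared the pattern: 6 of 9 (SOX2, SOX3, PAX6, NKX6-2, HES5 and NES) were lowest on both arrays numbered 1, and the sum of the 9 was 22490 with homocysteine and 21161 in control there, against 28062 to 30682 on the other 4 arrays. OLIG2, NKX6-1 and DBX2 were not lowest on both. The pattern was not particular to these markers. Among listed genes above background on all 6 arrays, it was found in 10 of 23 upstream regulators and 4 of 7 cartilage targets. It was found in 7 of 10 other SOX genes, SOX2 and SOX3 among them. It was found in 3 of 15 modifiers and cofactors and 1 of 7 glial, melanocyte and autonomic targets. Both of these shares were below the 24.0% of all sets above background. Of the notochord and floor plate markers 1 of 5 had it. The otic, surface ectoderm and mesoderm markers had it in 0 of 3, 0 of 3 and 0 of 1. None of the 9 neural tube markers was below background on any array, and their part in the SoxE levels was not tested.

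The arrays numbered 3 carried more signal for SOX9 and SOX8. On both, SOX9 and SOX8 were above all of the other 4 arrays, as were 8.37% of the sets above background. The ratio to the other arrays was 4.10 for SOX9 and 1.86 for SOX8. Of the 3 surface ectoderm markers above background on all 6 arrays, 1 was also highest on both of these arrays: CDH1, which encodes E-cadherin, at 2162.5 with homocysteine and 2447.6 in control against 614.5 to 1409.8 elsewhere. EPCAM was not, at 5681.4 with homocysteine and 7740.8 in control, with 6850.5 on control array 1. TP63 was lowest in each group on the array numbered 3, at 224.4 with homocysteine and 195.5 in control. The sum of the 7 measured surface ectoderm markers was 8257 with homocysteine and 10637 in control on the arrays numbered 3, against 4541 to 8700 on the other 4, while GATA2 and DLX3 were below background on every array. Of the neural tube, notochord, otic and mesoderm markers above background on all 6 arrays, 1 of 9 (PAX6), 0 of 5, 0 of 3 and 0 of 1 were highest on both arrays numbered 3. PAX6 was read there at 8036.5 with homocysteine and 7744.1 in control, against at most 6836.7 elsewhere. The part of other cells in the SOX9 level was not tested.

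The SoxE genes also varied with one another. Over the 6 arrays the Pearson r of log2 intensity was 0.80 for SOX8 with SOX10, 0.77 for SOX8 with SOX9 and 0.67 for SOX9 with SOX10. Without the arrays numbered 1 it was -0.41, 0.72 and 0.32 over 4 arrays, so the first of these rests on the low arrays numbered 1. These are descriptions of few points that share arrays, sample number and scaling.

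The genes most like each SoxE gene over the 6 arrays were sought among 7671 other genes above background on all arrays. For SOX10 they were ID4, an inhibitor of basic helix-loop-helix factors (r = 0.998), S100A10, an annexin partner (0.995), FABP5, a fatty acid binding protein (0.995), GINS1, a DNA replication factor (0.992), and MAP2K3, a kinase of the p38 pathway (0.991). ID4 was read at 2036.9, 2966.7 and 3542.6 on homocysteine arrays 1 to 3 and at 1731.9, 3376.7 and 2892 on control arrays 1 to 3, lowest on the arrays numbered 1 and highest on homocysteine array 3 like SOX10. In this comparison 491 genes had an r above 0.9 with SOX10, so such likeness was common.

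For SOX9 the nearest genes were RNF220, a ubiquitin ligase (r = 0.995), EAPP, an E2F-associated phosphoprotein (0.984), TNFSF10, a death receptor ligand (0.983), ZFP36L1, an mRNA decay factor (0.983), and RNF166, a RING finger protein (0.983). RNF220 was read at 1336.4, 1365 and 1990.4 on homocysteine arrays 1 to 3 and at 1220.2, 1465.6 and 2001 on control arrays 1 to 3. It was highest on the arrays numbered 3, as SOX9 was, over a much narrower range. An r above 0.9 was found for 118 genes. For SOX8 the nearest were RTFDC1 (r = 0.996), RARRES1, a retinoic acid responsive gene (0.995), VPS26B, a retromer subunit (0.993), BBOX1, an enzyme of carnitine synthesis (0.990), and NEDD1, which targets the gamma-tubulin ring complex (0.990), with 275 genes above 0.9. RARRES1 was read at 188.2, 313.3 and 340 on homocysteine arrays 1 to 3 and at 215.5, 295.5 and 408.3 on control arrays 1 to 3. With the group means taken away, r stayed between 0.983 and 0.999 for all 15 genes. It could hardly have fallen, so this is no check on the likeness. The genes were picked for a high r, and homocysteine against control held at most 1.34% of the spread of SOX8, SOX9 and the brighter SOX10 set.

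**Figure D4:**
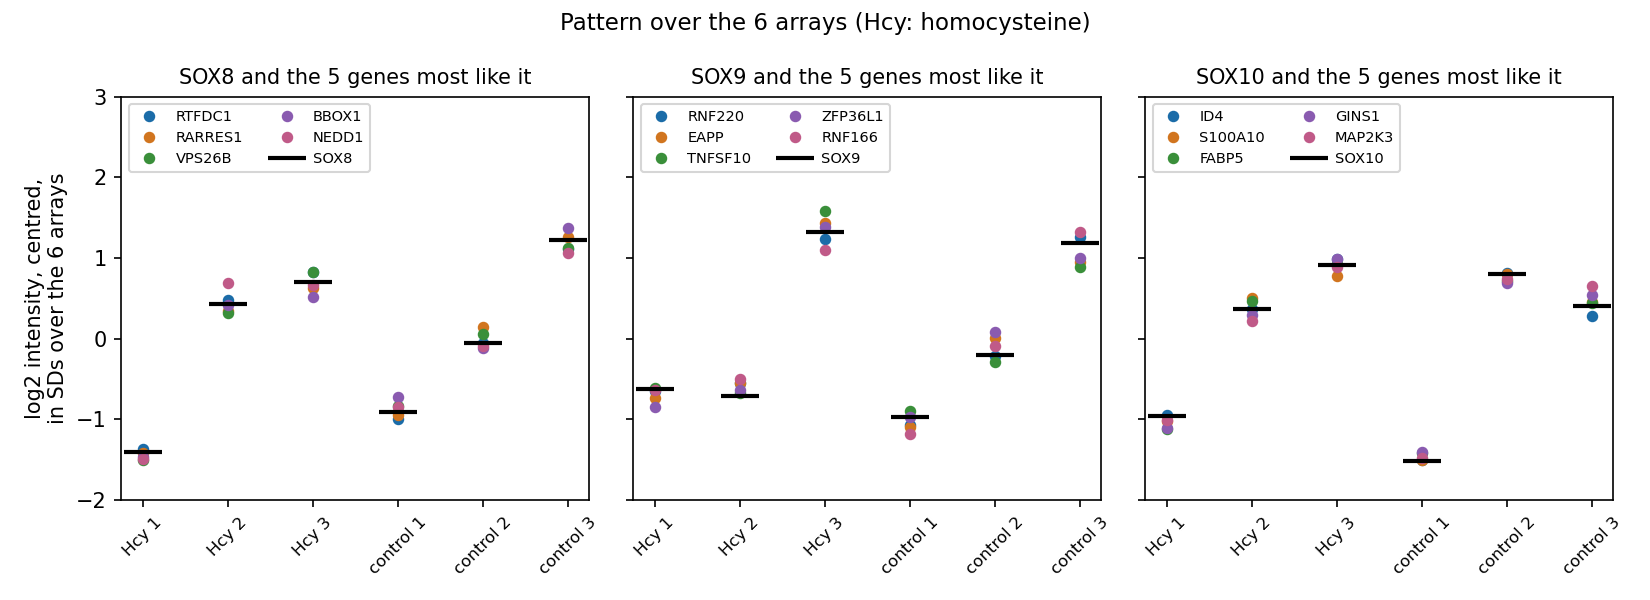
Log2 intensity, centred and in SDs over the 6 arrays, of SOX8, SOX9 and SOX10 (black bars) and of the 5 genes most like each (dots), homocysteine arrays left of control arrays. SOX9 and its 5 genes are highest on both arrays numbered 3, and SOX10 and its 5 genes are lowest on both arrays numbered 1. The genes were picked for the highest r over these same arrays, so a shared pattern follows from the choice.

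The other SOX genes gave no call, where 0% of all 38382 chicken sets were called. The smallest adjusted p of any set was 0.295 (limma), so neither this list nor those below could hold a call. Of 13 measured, 10 were above background on all 6 arrays, and 0 of the 13 passed in either direction (limma). The log2 change was positive in 7 and negative in 6, and its median was 0.10, where all genes had 0.0084. Among the 10 the changes ran from -0.72 to 0.45 and the median was -0.047. SOX3, a SoxB1 factor of neural progenitors, was read at 5368.5, 5557.4 and 7125.9 on homocysteine arrays 1 to 3 and at 5159.7, 7289.1 and 6479.7 on control arrays 1 to 3. Its log2 change was -0.07 (95% interval -0.78 to 0.64). SOX2, of the same group, had a log2 change of -0.23, and SOX1 of -0.19, with wide intervals from -1.24 to 0.78 and from -1.11 to 0.72.

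SOX5, a SoxD factor that acts with SOX9 in cartilage, was read at 409.2, 458.8 and 553.7 on homocysteine arrays 1 to 3 and at 337.8, 472.7 and 496.6 on control arrays 1 to 3. The groups overlapped, with a log2 change of 0.13 (95% interval -0.60 to 0.87). A dimmer SOX5 set had a log2 change of -0.31. SOX6, its SoxD relative, was above background on 1 array only. SOX11, a SoxC factor of neural progenitors and neurons, was read at 178.8, 1112.4 and 313.6 on homocysteine arrays 1 to 3 and at 250.8, 1172.7 and 953.6 on control arrays 1 to 3. It was lower with homocysteine in all 3 pairs, as SOX1 was, while SOX18 was higher in all 3. Of all chicken sets, 25.4% had the same sign in all 3 pairs. The log2 change of SOX11 was -0.72, with a 95% interval from -2.91 to 1.46. SOX4, also SoxC, had a log2 change of -0.03. The SoxF genes SOX7, SOX17 and SOX18, known from endothelium and endoderm, had log2 changes of 0.12, 0.45 and 0.42, and SOX30 of -0.10. The limma adjusted p was 0.9999 for each of these 10 genes.

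Regulators known to act upstream of SoxE genes in the crest gave no call either, where 0% of all chicken sets were called. All 28 listed genes were measured, 23 were above background on all 6 arrays, and 0 passed in either direction (limma). Log2 changes were positive in 12 and negative in 16, and their median was -0.024. The 4 brightest were CTNNB1, which encodes beta-catenin, MYCN, ZIC1, a neural plate border factor, and LMO4, a LIM-only cofactor. ZIC1 was read at 12309.6, 10353.5 and 13025.5 on homocysteine arrays 1 to 3 and at 11939.2, 11824.8 and 8942.8 on control arrays 1 to 3, a log2 change of 0.13. CTNNB1 and MYCN had log2 changes of 0.02 and 0.05. Dimmer sets of ZIC1 and MYCN, above background on all 6 arrays, had the other sign, at -0.10 and -0.01. LMO4 was read at 9823.5, 11175.7 and 12269.9 with homocysteine and at 9399.7, 9135.7 and 9085.1 in control. Its groups did not overlap, with a log2 change of 0.26 (95% interval -0.36 to 0.88, limma adjusted p = 0.9999). A dimmer LMO4 set, above background on all 6 arrays, overlapped and had the other sign, with a log2 change of -0.37. It was read at 285.5, 807.2 and 577.4 with homocysteine and 332, 805.5 and 1084.5 in control.

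In all, 4 of the 28 regulators had groups without overlap: LMO4, CSRNP1, SMAD5 and FGF8, the last 3 named after their values were seen. FGF8 was below background on 5 of 6 arrays. The share over all chicken sets was 7.14%. On the arrays numbered 1, 10 of the 23 regulators above background were below all other arrays in both groups, as SOX8 and SOX10 were, against 24.0% of all such sets. Another 5 of the 23, MYCN, CTNNB1, AXIN2, SMAD1 and NOTCH1, were above all other arrays there, against 23.5% of such sets. The 10 lower ones were ETS1, PAX7, MSX1, MSX2, TFAP2B, FOXD3, SNAI2, MYC, ID3 and FGFR1. ETS1, a direct activator of a SOX10 enhancer in chick cranial crest, was read at 881.7, 897.7 and 1095.8 on homocysteine arrays 1 to 3 and at 713.7, 1025.3 and 1171.6 on control arrays 1 to 3. MYB, which binds the same enhancer, was below background on every array. ETS1 and MYB were named after their values were seen.

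Genes known as SoxE targets in glia, melanocytes and autonomic neurons were mostly dim. Of 27 listed, 19 were measured under their symbols and 7 of these were above background on all 6 arrays. None of the 19 passed in either direction (limma). Among them 14 log2 changes were positive and 5 negative, and the median was 0.13, or 0.013 over the 7. FABP7, a fatty acid binding protein of radial glia and crest-derived glia, was read at 5590.9, 12102.8 and 4132.7 on homocysteine arrays 1 to 3 and at 5198.3, 12436.2 and 9065.9 on control arrays 1 to 3. It was highest on the array numbered 2 in each group, unlike SOX8 and SOX9, and its log2 change was -0.36 (95% interval -1.68 to 0.97). EDNRB, an endothelin receptor of the crest, was read at 1576.7, 1189.4 and 1390.1 with homocysteine and at 1539.7, 1297.6 and 1236.2 in control.

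MITF, the melanocyte regulator that SOX10 activates, was read at 494.8, 467.9 and 465.9 on homocysteine arrays 1 to 3 and at 698, 553.6 and 533.7 on control arrays 1 to 3. Its groups did not overlap, with a log2 change of -0.31 and a 95% interval from -0.96 to 0.33 (limma adjusted p = 0.9999). The other 4 MITF sets were dim, and their signs differed. PMP22, a myelin protein gene, had a log2 change of 0.13. In all, 3 of the 19 targets had groups without overlap, where 7.14% of all chicken sets did: MITF, CNP and DBH, the last 2 named after their values were seen. CNP, a gene symbol as the annotation gives it, was read at 161.7, 152 and 229.6 on homocysteine arrays 1 to 3 and at 65.2, 88.4 and 138 on control arrays 1 to 3. Its log2 change was 0.94, opposite in sign to that of MITF (limma adjusted p = 0.9999). DBH, an enzyme of noradrenaline synthesis, was below background on all 6 arrays, and it was the 1 gene of the list with an unadjusted p under 0.05. The 5 pigment genes DCT, TYR, TYRP1, PMEL and MLANA, also named after their values were seen, lay near or below background. DCT was above it on 0 homocysteine and 2 control arrays, TYR and PMEL on 1 of each group, MLANA on 2 of each and TYRP1 on none.

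Cartilage targets, which SOX9 activates with SOX5 and SOX6, gave no call. Of 17 listed, 14 were measured, SOX5 and SOX6 among them, 7 were above background on all 6 arrays, and 0 passed in either direction (limma). The log2 change was positive in 7 and negative in 7, and its median was 0.019. COL2A1, the type II collagen gene and a direct SOX9 target, was read at 659.1, 711.4 and 773 on homocysteine arrays 1 to 3 and at 676.4, 751.1 and 1204.4 on control arrays 1 to 3. Like SOX9 it was highest on both arrays numbered 3. In all, 2 of the 7 were (COL2A1 and SOX5), against 8.37% of all sets above background. For COL2A1 the margin was small, with 773 on homocysteine array 3 against 751.1 on control array 2. A dimmer COL2A1 set was not highest on both, at 97.9 on homocysteine array 3 against 134.2 on homocysteine array 2. The groups of COL2A1 overlapped, with a log2 change of -0.25 (95% interval -1.05 to 0.54). The type IX collagen genes COL9A1 and COL9A3 had log2 changes of -0.04 and 0.08, and CREB3L2, a secretory pathway factor, of -0.01. Dimmer sets above background on all 6 arrays had -0.06 for COL9A3 and 0.04 and -0.76 for CREB3L2. Aggrecan (ACAN), also named after its values were seen, was above background on 1 control array and no homocysteine array.

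Genes that modify SoxE proteins or act with them were bright. Of 25 listed, 19 were measured, 15 were above background on all 6 arrays, and 0 passed in either direction (limma). Log2 changes were positive in 10 and negative in 9, and their median was 0.031. SUMO2 and SUMO3 encode the small modifiers that are attached to SoxE proteins, and each had a log2 change of 0.09. HDAC2, a histone deacetylase, had -0.08, and XPO1, the nuclear export receptor, 0.20. The 95% intervals of these 4 lay within -0.74 to 0.90, and the limma adjusted p was 0.9999 for each. Dimmer sets above background on all 6 arrays had -0.07 for SUMO3 and -0.12, 0.03 and -0.46 for XPO1.

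Markers of other cell types were compared in the same way, and none passed (limma). Surface ectoderm, the last of these types, is not among the sources of SoxE transcripts named above. All 9 measured neural tube progenitor markers were above background on all 6 arrays. Their summed intensity was between 22490 and 29307 with homocysteine and between 21161 and 30682 in control, and PAX6, a neural progenitor factor, had a log2 change of 0.11. The other 3 brightest, SOX3, HES5 and NES, had -0.07, 0.20 and -0.12. Of 6 measured otic placode markers, PAX2, GBX2 and DLX5 were above background on all arrays, EYA1, HMX3 and OC90 on none, and the sum lay between 14363 and 19414 with homocysteine and between 11219 and 20503 in control. GBX2 and DLX5 are expressed widely outside the ear. PAX2, GBX2 and DLX5 had log2 changes of -0.20, 0.14 and -0.0064.

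Of 6 measured notochord and floor plate markers 5 were above background on all arrays, and the sum was 1579 to 2261 with homocysteine and 1243 to 1779 in control. TBXT, SHH, FOXA2 and NOG had log2 changes of 0.98, 0.10, -0.41 and 0.01. Of 11 measured mesoderm and somite markers only MEOX1 was above background on all 6 arrays, 4 were above it on none, and the sum was 670 to 828 with homocysteine and 428 to 1124 in control. The log2 change was 0.01 for MEOX1 and, near background, -0.80 for FOXC2, -0.22 for PAX9 and 1.11 for MESP1. Of 7 measured surface ectoderm markers 3 were above background on all arrays, and the sum was 5197 to 8257 with homocysteine and 4541 to 10637 in control. EPCAM, CDH1, TP63 and GATA3 had log2 changes of -0.24, -0.30, 0.44 and -0.15. These sums overlapped between the groups. Positive and negative log2 changes numbered 4 and 5 among the neural tube markers (median -0.066), 3 and 3 among the otic ones (0.069), 5 and 1 among the notochord and floor plate ones (0.091), 5 and 6 among the mesoderm ones (-0.044) and 2 and 5 among the surface ectoderm ones (-0.24).

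**Figure D5:**
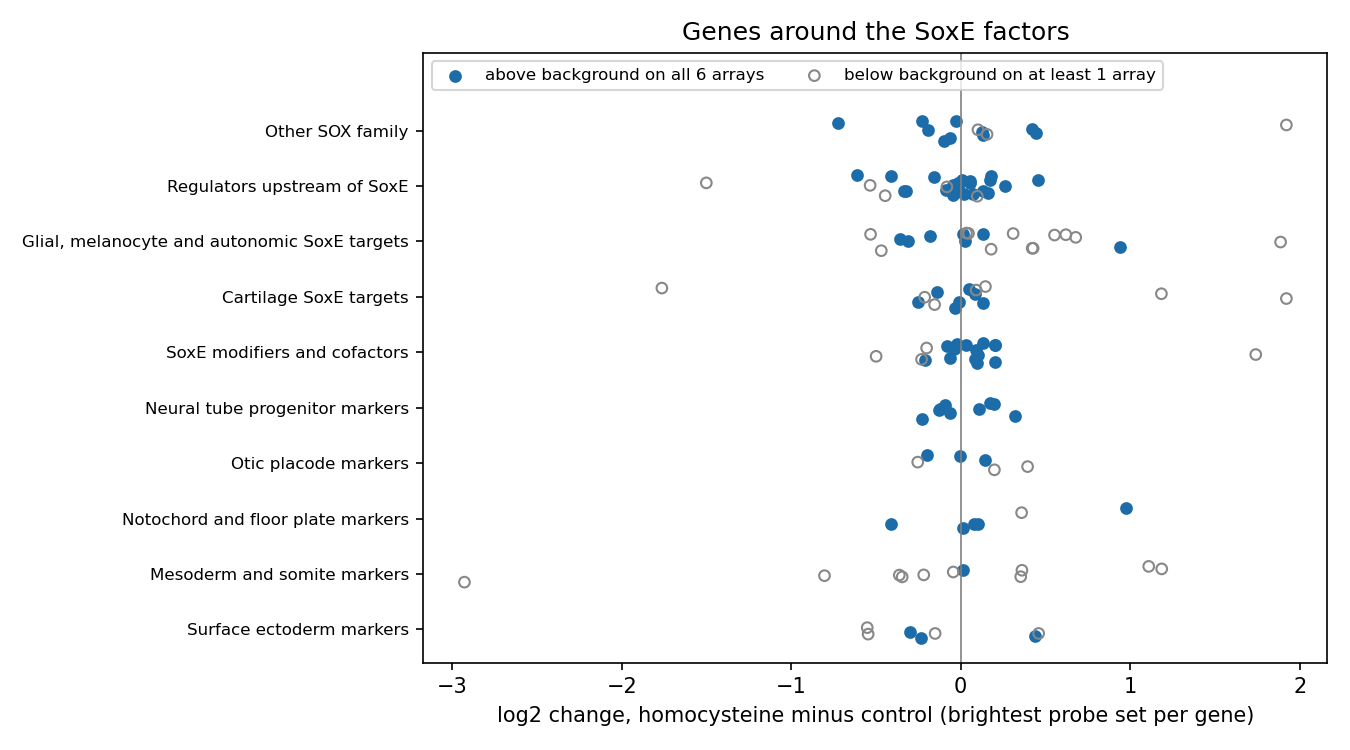
Log2 change, homocysteine minus control, of the brightest probe set of each listed gene (dots), by gene list, filled where the gene was above background on all 6 arrays and open where it was not. All changes beyond 1 in size belong to genes below background on at least 1 array, and 0 genes passed the test.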

How the data were processed

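Total RNA of 6 samples was measured on 1-colour Affymetrix chicken arrays. The authors deposited a linear intensity for each probe set. RMA is named, without a version, per the submitters' processing notes, but the intensities are linear with a 2% trimmed mean of 500.1 on every array, a form that RMA does not give. The sources used here name no other step.

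Log2 of each intensity was taken, with no pseudocount, no further normalization and no filter. The 96 Affymetrix control sets and 57 reporter sets were left out, leaving 38382 sets. Homocysteine was compared with control in limma 3.58.1 (R 4.3.3; lmFit and eBayes). P-values were two-sided and adjusted by Benjamini-Hochberg over all sets, with a threshold of 0.05. The fit and its intervals were tested on simulated data with independent noise and no effect of the replicate number. These data have such an effect, so that test does not gauge the intervals reported here. A single value was also tested by exact permutation of 6 arrays, which ignores the replicate numbers. The number of arrays and the signal over background limit the precision.

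Symbols came from the platform annotation, updated by gene number through a RefSeq table of GRCg7b: 26853 of 27168 sets with 1 symbol matched. Each listed gene is read by its brightest set, 128 of 159 being measured. The members and lists were chosen with earlier results of these data known. Named were every SoxE set, the other SOX genes above background on all arrays, the 4 brightest members of each other list and the 5 most correlated genes per SoxE gene. Alternatives covered the replicate block, scaling, dim values, a pseudocount, the variance model, other probe sets and left-out arrays.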

Additional observations from a re-analysis of the deposited data

How the results depend on the processing

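No SoxE probe set passed the threshold under any of the 14 alternatives run for that count, and the adjusted p of single SoxE genes lay between 0.944 and 1.00 over all alternatives (limma). Likewise 0 sets of the whole array and 0 listed genes passed, with 375 to 2107 sets of the array at an unadjusted p under 0.05. The sign of the SoxE changes was not firm. SOX10 turned to -0.080 with the mean of its probe sets and to -0.22 with the dimmer set alone. Leaving out 1 array at a time gave log2 changes from -0.14 to 0.21 for SOX10, from -0.42 to 0.29 for SOX8 and from -0.73 to 0.63 for SOX9. SOX8 turned positive without homocysteine array 1 (0.29) or control array 3 (0.24), SOX9 without homocysteine array 1 (0.33), homocysteine array 2 (0.37) or control array 3 (0.63), and SOX10 negative without homocysteine array 3 (-0.054) or control array 1 (-0.14). Leaving out an array breaks a same-numbered pair, and the 3 genes differ mostly by number. Such turns of sign therefore do not gauge a change within pairs. Without both arrays numbered 1 each gene kept its sign, though by pair the direction was mixed for each of them. SOX8 and SOX9 have 1 set each, so other probe sets could not be tried for them.

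By the rule used, the replicate numbers do not count as pairs, since deviations from the group means correlated by 0.172, 0.108 and 0.0486 over all probe sets for numbers 1, 2 and 3, where every one had to exceed 0.1. Over the 14437 sets above background on all 6 arrays, a choice made after seeing the data, they were 0.786, 0.703 and 0.332, and by either choice each of the 6 arrays was closest to the one with its own number, a hint that same-numbered arrays belong together. With the replicate block the log2 changes were -0.11 for SOX8 (95% interval -0.85 to 0.63), -0.0077 for SOX9 (-0.86 to 0.84) and 0.059 for SOX10 (-0.55 to 0.67), and 0 sets passed. With the block among sets above background on all 6 arrays, chosen after seeing the data, the intervals were -0.54 to 0.31, -0.51 to 0.49 and -0.28 to 0.40.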
